A study of Mus musculus with 22 samples.

Results

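The windows described here are 150-base stretches of the mouse genome, centred on peak summits of ATAC-seq, that were more accessible in spleen T-bet+ cDC2s and in cDC1s than in T-bet- cDC2s. They were selected on their ATAC-seq values alone. Reads in each window were scaled to the sum over all windows of the library, which gives CPM, the count per 1000000 reads. A window was a member where all 4 libraries of T-bet+ cDC2s and cDC1s were at 3 CPM or more, where the lowest of these was at least 1.5 times the higher of the 2 T-bet- cDC2 libraries, and where the T-bet+ cDC2 and cDC1 means differed by less than 1.5-fold. These conditions held in 1110 of 177956 windows, or 0.624%. The accessibility of these windows in the 6 libraries is therefore a description and carries no test, while their position, their sequence and the RNA of the genes nearest to them did not enter the choice.

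Conventional dendritic cells take up antigen and present it to T cells. The cDC1 lineage, marked by XCR1, is known for presenting antigen of dead cells on MHC class I and depends on the transcription factors IRF8 and BATF3, whereas cDC2s, marked by CD11b, are a mixed group known for presentation on MHC class II and rely more on IRF4. T-bet, encoded by Tbx21, is a T-box transcription factor best known from T helper cells, NK cells and innate lymphoid cells, and it marks a subset of cDC2s. In ATAC-seq a transposase cuts DNA that is free of nucleosomes, so the reads collect at promoters and enhancers, most of which are bound by transcription factors that read short sequence motifs.

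All cells came from Tbx21RFP-cre mice, aged 6 to 10 weeks and of both sexes, in which RFP and Cre are produced from the Tbx21 locus, so the control subsets carry the same allele. Cells negative for a set of lineage markers, among them CD3, CD90, CD64 and Ly6C, and positive for CD11c and MHC class II were sorted as RFP+ or RFP- CD11b+ XCR1- cells (T-bet+ and T-bet- cDC2s) and as CD11b- XCR1+ cells (cDC1s). ATAC-seq used 50000 sorted spleen cells per library, with 2 libraries of each subset. Each RNA-seq library pooled 2 mice. Spleen gave 3 RNA-seq libraries per subset, and the mesenteric lymph node (MLN) gave 3 libraries for cDC1s and 2 for either subset of cDC2s. Libraries are replicates by their labels, and p-values measure the spread between these pools, which may be partly technical.

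Marker RNA went with the subset labels. Tbx21 was at 406 to 586 normalized counts in spleen T-bet+ cDC2s, at 6.8 to 55.9 in T-bet- cDC2s and at 3.43 to 29 in cDC1s. The summed level of 4 cDC1 markers was 47000 to 51600 normalized counts in spleen cDC1s and at most 1350 in either cDC2 subset, and that of 3 cDC2 markers was 351 to 538 in cDC1s and at least 21100 in cDC2s. The summed level of 5 macrophage and monocyte markers was 14700 to 22100 in T-bet- cDC2s, 9410 to 11000 in T-bet+ cDC2s and 2030 to 4100 in cDC1s. These markers did not all go the same way. Adgre1 overlapped between T-bet- (7930 to 13000) and T-bet+ cDC2s (8200 to 9810). C1qa was at 3200 to 4840 in T-bet- cDC2s, 267 to 439 in T-bet+ cDC2s and 127 to 171 in cDC1s. Ly6c2 was at 82.2 to 133 in cDC1s and 46.1 to 95.2 in T-bet- cDC2s. The summed level of 4 NK cell markers was 1490 to 3100 in T-bet- cDC2s, 86.4 to 192 in T-bet+ cDC2s and 1420 to 1730 in cDC1s. Nearly all of this sum was Klrk1, at 1480 to 3090 in T-bet- cDC2s, while Ncr1 was at most 3.4, Klrb1c at most 9.07 and Gzma at most 8.4 in any spleen library. In bulk samples, fewer cells of a type and less RNA per cell cannot be told apart. ATAC-seq gave 7270164 to 10081555 reads in windows per library, and RNA-seq 20993220 to 29006549 reads on genes.

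Sequences of 6 member windows show what the members look like. They were taken from the 15 genes most higher and the 8 most lower in RNA, plotted further on, and from genes of the lists that have a member. Among these, the best windows of the 10 genes with the highest ratio of the lowest T-bet+ or cDC1 library to the higher T-bet- library were considered, and the 4 that overlap an annotated exon are not printed. Windows of other genes with higher ratios are described further on without their sequence. All are given on the plus strand of mm10, from the RefSeq copy of that assembly, 5′ to 3′, and capitals mark the letters of any of 21 searched motifs on either strand. The Maml2 window, chr9:13556775-13556924, lies in an intron and holds CACCTG, an E-box that Zeb proteins bind, and a Runx match. The Nme9 window, chr9:99469072-99469221, lies by the start of an annotated transcript and holds a T-box match and 2 ROR matches. The Ccr6 window, chr17:8234698-8234847, lies in the promoter and holds the E-box CAGCTG. The Sema4f window, chr6:82940909-82941058, also in the promoter, holds Runx, PU.1 and CACCTG matches (the last printed as CAGGTG, its other strand). The Cdh17 window, chr4:11763395-11763544, is intronic and holds 2 AP-1 matches, overlapping PU.1 and EICE matches and NF-Y. The Fabp4 window, chr3:10212039-10212188, lies between genes and holds C/EBP.
Maml2: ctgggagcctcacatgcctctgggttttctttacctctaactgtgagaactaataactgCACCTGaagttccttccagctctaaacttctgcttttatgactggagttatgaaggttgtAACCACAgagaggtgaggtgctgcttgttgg
Nme9: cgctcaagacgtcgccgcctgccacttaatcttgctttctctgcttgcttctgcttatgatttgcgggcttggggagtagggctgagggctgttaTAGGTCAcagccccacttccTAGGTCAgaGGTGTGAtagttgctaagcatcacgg
Ccr6: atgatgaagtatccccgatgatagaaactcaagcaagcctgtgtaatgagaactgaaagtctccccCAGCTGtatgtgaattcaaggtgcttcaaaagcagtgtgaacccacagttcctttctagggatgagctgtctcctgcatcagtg
Sema4f: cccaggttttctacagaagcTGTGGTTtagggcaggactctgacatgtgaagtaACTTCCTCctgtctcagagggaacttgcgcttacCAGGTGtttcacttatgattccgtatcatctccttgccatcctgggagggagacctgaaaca
Cdh17: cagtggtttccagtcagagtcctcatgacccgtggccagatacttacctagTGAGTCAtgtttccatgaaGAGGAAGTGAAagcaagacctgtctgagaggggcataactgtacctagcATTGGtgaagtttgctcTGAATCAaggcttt
Fabp4: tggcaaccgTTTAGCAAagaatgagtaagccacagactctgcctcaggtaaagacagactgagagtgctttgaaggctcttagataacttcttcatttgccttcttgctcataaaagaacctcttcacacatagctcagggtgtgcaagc

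The members were windows of moderate accessibility. Their median was 2.87 and 2.85 CPM in the 2 T-bet- cDC2 libraries. It was 7.64 and 7.18 CPM in T-bet+ cDC2s and 7.65 and 7.98 CPM in cDC1s. The middle of the distribution thus lay near the same level in T-bet+ cDC2s and cDC1s, with a median fold over T-bet- cDC2s of 2.5 and 2.6. The T-bet+ mean was the higher of the pair in 479 members (43.2%). Members took up 0.458% to 0.464% of the reads of T-bet- libraries and 1.1% to 1.18% of those of the other 4. Members without reads in T-bet- cDC2s were rare: 1 of 1110 had no read in a T-bet- library and none had 0 in both.

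**Figure D1:**
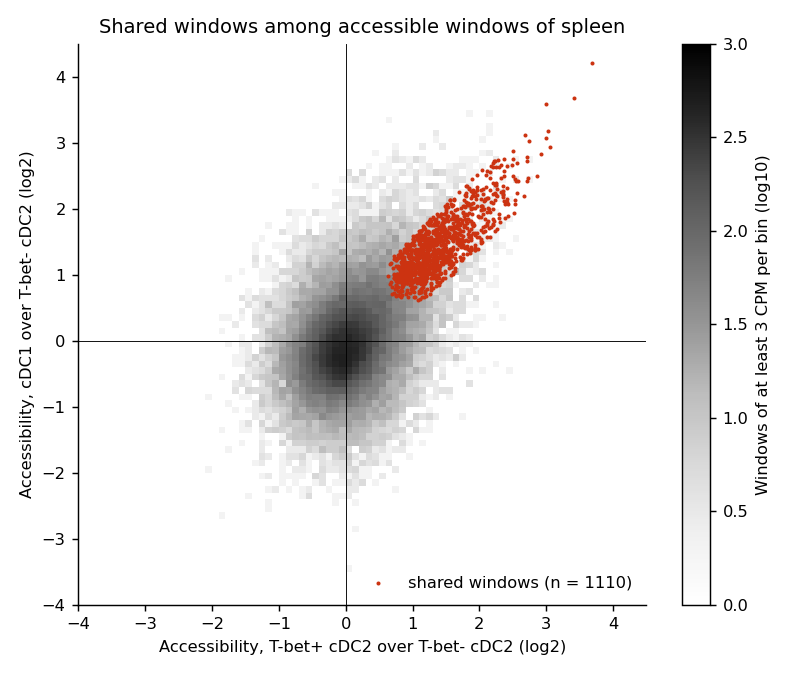
Accessibility (log2 ratio of mean CPM) of T-bet+ cDC2s over T-bet- cDC2s on the horizontal axis and of cDC1s over T-bet- cDC2s on the vertical axis for the 49539 windows at 3 CPM or more in all 4 T-bet+ and cDC1 libraries. Grey is the number of windows per bin (log10 scale) and red points are the 1110 members, which lie in the upper right because the rule placed them there.

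The members were graded rather than set apart. The ratio of the lowest T-bet+ or cDC1 library to the higher T-bet- library had a median of 1.83 and a maximum of 11.6, with 695 members under 2, 392 from 2 to under 4 and 23 at 4 or more. Windows at the edges of the rule show how fine its limits are. The lowest library was at 3.011 CPM in the members near Ncoa7 and Eps8l2 and at 2.991 CPM in the windows near Fam222b and Gfap, which were left out. The ratio was 1.5 in the members near Ptpn3 and Txndc5 and 1.499 in a window near Tgfbr2 that failed. The fold between T-bet+ cDC2s and cDC1s was 1.499 in the member near Pde4b and 1.501 in a window near Zdhhc8 that failed.

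Choosing windows in the libraries of a single replicate number showed how far the pattern held in libraries that the choice had not used. With replicate 1 of each subset 3893 windows met the rule, and 1005 of them (25.8%) met it again in replicate 2, against 1.91% of all windows. With replicate 2 it was 3403 windows, of which 29.5% met the rule in replicate 1, against 2.19% of all windows. Both subsets were above the T-bet- library in the replicate not used in 68.4% and 75.1% of the chosen windows, against 28.0% and 30.2% of all. All windows include those below the floor of 3 CPM, so these backgrounds are not matched to the chosen windows. Most windows picked in a single set of libraries thus did not meet the full rule in the other, though they leaned the same way more often than windows in general.

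Introns were the largest class of positions. Of 1110, 493 (44.4%) were intronic, 283 (25.5%) lay within 2000 bases of the start of an annotated transcript, 259 (23.3%) were intergenic and 55 (4.95%) exonic. Among all windows 34.2% were intronic and 30.1% in promoters. Windows that met the members' floor of 3 CPM in all 4 T-bet+ and cDC1 libraries were in promoters in 50.3% and in introns in 25.3%. That set has no upper limit and is not matched to the members in accessibility. The median GC content was 49.3% in members and in all windows. Members sat on every autosome and on X, from 0.372% of the windows of chromosome 8 to 0.849% of those of chromosome 11.

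Neighbouring windows of a peak tended to lean the same way in the libraries that chose the members. Members fell in 1013 peaks, of which 932 held a single member, 68 held 2 and 13 held 3 or more. These peaks held 1594 further windows, and in 73.1% of them both T-bet+ cDC2s and cDC1s had a higher mean CPM than T-bet- cDC2s, against 27.7% of all windows. Overlapping windows count the same reads, and 36 members overlapped the member before them. Overlap of the further windows with members was not counted. All windows include those below 3 CPM, so these shares are descriptions without a matched background.

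By the difference in percentage points from all windows, the letters that stood out most in members were CACCTG, an E-box that Zeb repressors read. They occurred on either strand in 249 members, or 22.4% (95% Wilson interval 20.1% to 25.0%, counting error only). The share was 10.8% of all windows and 10.7% of windows at 3 CPM or more. It was 13.5% in the 3544 windows higher in T-bet+ cDC2s only and 10.6% in the 14492 higher in cDC1s only, which were chosen by the same 3 CPM and 1.5-fold limits against all libraries of the other subsets. The 1396 windows shared by T-bet- cDC2s and cDC1s, chosen by the same rule with the cDC2 subsets exchanged and called the mirror set here, held CACCTG in 3.51%. Of the sets compared, the share was highest in members and lowest in the mirror set. These are descriptions of the letters, with no test.

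The CACCTG share was alike inside and outside promoters and across ratios. It was 24.0% in the 283 members in promoters, against 11.3% of all promoter windows, and 21.9% in the 827 others, against 10.6%. It was 22.6% in members with a ratio under 2, 22.2% from 2 to under 4 and 21.7% (5 of 23) at 4 or more. At least 2 matches were present in 2.34% of members and in 0.723% of all windows. Of the 279 matches in members, 36.6% lay within 25 bases of the window's centre, against 33.4% of those in all windows. Among the 10 distinct forms of the E-box CANNTG, the members' share over that of all windows was 2.08 for CACCTG. It was between 0.74 (CAACTG) and 1.38 (CACGTG) for the others. CAGCTG, another of these forms, was in 8.2% of members and 8.75% of all windows.

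By the same difference PU.1 letters came next. By the ratio of the members' share to that of all windows the order was another, with Nr4a at 2.5 (28 members), PU.1 at 2.29, CRE (TGACGTCA) at 2.17 (8 members) and CACCTG at 2.08. PU.1, encoded by Spi1, is an Ets-family factor that opens enhancers in myeloid cells. GAGGAAGT occurred in 140 members, or 12.6% (Wilson interval 10.8% to 14.7%). All windows held it in 5.5%, and windows at 3 CPM or more in 8.03%. The other sets, at 9.53% to 9.79%, lay between all windows and the members. Of the matches in members 60.4% lay within 25 bases of the centre, against 53.3% in all windows. The letters CCGGAAGT, typical of other Ets factors at promoters, were in 1 member (0.0901%) and in 0.547% of all windows.

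T-box and Runx letters were also in a larger share of members than of all windows. TCACACC, the T-box motif, was in 52 members (4.68%), in 2.4% of all windows and in 5.3% of windows higher only in T-bet+ cDC2s. By ratio it was in 3.6% of members under 2, in 5.87% from 2 to under 4 and in 4 of the 23 members at 4 or more (17.4%, Wilson interval 6.98% to 37.1%), 2 of which are the overlapping Nme9 windows. TGTGGTT, the Runx motif, was in 94 members (8.47%), in 5.23% of all windows and in 12.6% of windows higher only in T-bet+ cDC2s. EICE (GGAANNGAA), the joint site of PU.1 and IRF factors, was in 9.46% of members and in 15.8% of windows higher only in cDC1s. ISRE (GAAANNGAA), an IRF site, was in 6.4% and 11.5%. The members' share of T-box letters was thus near that of the T-bet+ set, that of Runx letters lay between all windows and the T-bet+ set, and those of the IRF-type letters lay below the cDC1 set.

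The other motifs lay above or below the background, some of them within counting error. AP-1 (TGANTCA) was in 11.4% of members (Wilson interval 9.7% to 13.4%), 7.9% of all windows and 16.2% of the mirror set. Nr4a (AAAGGTCA) was in 2.52% of members and 1.01% of all windows, and NF-kB (GGGANTTCC) in 1.98% and 1.08%. CTCF letters (CCANNAGGG) were in 2.34% of members and 3.97% of all windows. NF-Y letters (CCAAT) were in 14.4% of members (Wilson interval 12.5% to 16.6%) and 17.4% of all windows. The members' shares of C/EBP, Rbpj, Klf, STAT and Nfil3 letters were also smaller. For each of these the share of all windows lay within the members' Wilson interval, so no difference is shown. None of the 21 motifs was found in 284 members. The motif strings overlap: PU.1, Ets and EICE share the letters GGAA, AICE contains letters of AP-1 and ISRE sites, and ROR and Nr4a share AGGTCA, so a single stretch can count more than once. A match is a run of letters, not a bound site.

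**Figure D2:**
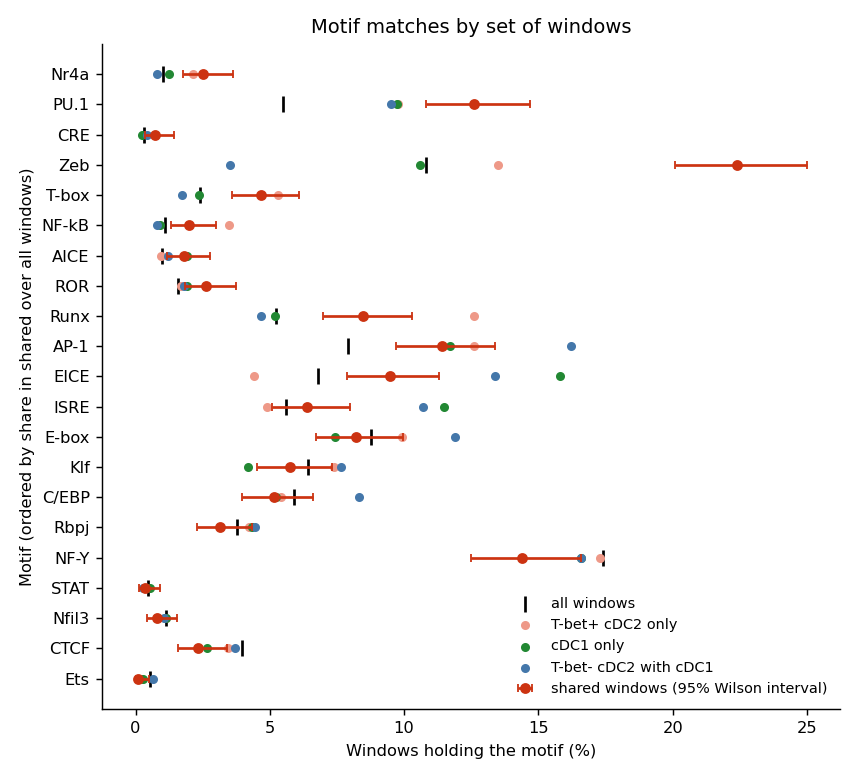
Percent of windows that hold each of 21 motifs on either strand, for the 1110 members (red, with 95% Wilson intervals), all windows (black ticks) and 3 other sets chosen by accessibility. CACCTG (row Zeb) is in 22.4% of members and in 3.51% of windows shared by T-bet- cDC2s and cDC1s.

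Many factors can read these letters, and only some are given here. Zeb2 and Nr4a2 passed in RNA for the mean of T-bet+ cDC2s and cDC1s, and Spi1 did not. The other Zeb and Nr4a genes of the list used here were called in neither direction. Other transcription factors of DCs, listed further on, passed too. Among them were Id2, which was higher, and Batf, Klf4 and Tcf4, which were lower. Zeb2, a zinc-finger repressor known from plasmacytoid DCs and cDC2s, was at 7810, 2640 and 4680 normalized counts in the spleen T-bet- cDC2 libraries. It was at 919, 1340 and 1320 in T-bet+ cDC2s and at 12.4, 14.5 and 90.2 in cDC1s. The 3 subsets did not overlap, with T-bet- cDC2s highest and cDC1s lowest. The mean of T-bet+ cDC2s and cDC1s was lower than T-bet- cDC2s on the log2 scale, at -4.55 (SE 0.57, adjusted p = 0.00094 by edgeR's quasi-likelihood test with Benjamini-Hochberg adjustment over 14377 genes, used throughout). For cDC1s alone the value was -7.03 (adjusted p = 0.00048), and for T-bet+ cDC2s alone -2.08 (adjusted p = 0.12). In MLN the same contrast of Zeb2 was -3.35 (SE 0.45, adjusted p = 0.013). Spi1 ranged from 2800 to 25500 normalized counts among the T-bet- libraries alone and did not pass (1.03, SE 0.69, adjusted p = 0.44). Nr4a2, a nuclear receptor induced by stimulation, was at 2140 to 6240 in T-bet- cDC2s, at 13500 to 23200 in T-bet+ cDC2s and at 3570 to 16400 in cDC1s. It was called higher narrowly (1.97, SE 0.52, adjusted p = 0.046), and its cDC1 levels overlapped those of T-bet- cDC2s. Whether any of these factors bound the members was not tested.

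The windows with the highest ratio belonged to genes of varied function. The highest, 11.6, was an intronic window of the noncoding gene Gm12655, chr4:94471354-94471503. It was at 0.719 and 0.712 CPM in T-bet- cDC2s (6 and 7 reads), at 8.33 and 10.1 CPM in T-bet+ cDC2s and at 12.2 and 14.3 CPM in cDC1s. An exonic window of Supt20, a subunit of the SAGA coactivator complex, was at 1.56 and 1.22, at 13.4 and 16.2 and at 15.7 and 19.8 CPM (ratio 8.6). Both had a CPM at least 8 times that of T-bet- cDC2s in every T-bet+ and cDC1 library. A window 33437 bases from Lyzl1, a lysozyme-like gene, was at 1.68 and 1.73, at 14.6 and 12.8 and at 19.8 and 21.2 CPM (ratio 7.38). The T-bet+ cDC2 and cDC1 levels of this window differed by almost the full 1.5-fold that the rule allows.

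The Maml2 window shown above, in a gene of the Notch coactivator family, was at 1.2 and 1.12 CPM in T-bet- cDC2s, at 7.34 and 8.28 in T-bet+ cDC2s and at 8.28 and 10.6 in cDC1s (ratio 6.13). The 2 overlapping Nme9 windows had ratios of 6.05 and 5.05, and Nme9 encodes a protein of the nucleoside diphosphate kinase family. An intronic window of Ptk2, the focal adhesion kinase, was at 0.719 and 1.12, at 7.94 and 6.68 and at 8.53 and 6.88 CPM (ratio 5.97). The last of the 8 leading windows lay 2228 bases from AC103947.1, with a ratio of 4.94. In these windows T-bet- cDC2 libraries held 6 to 17 reads each, so the ratios rest on few reads in that subset.

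**Figure D3:**
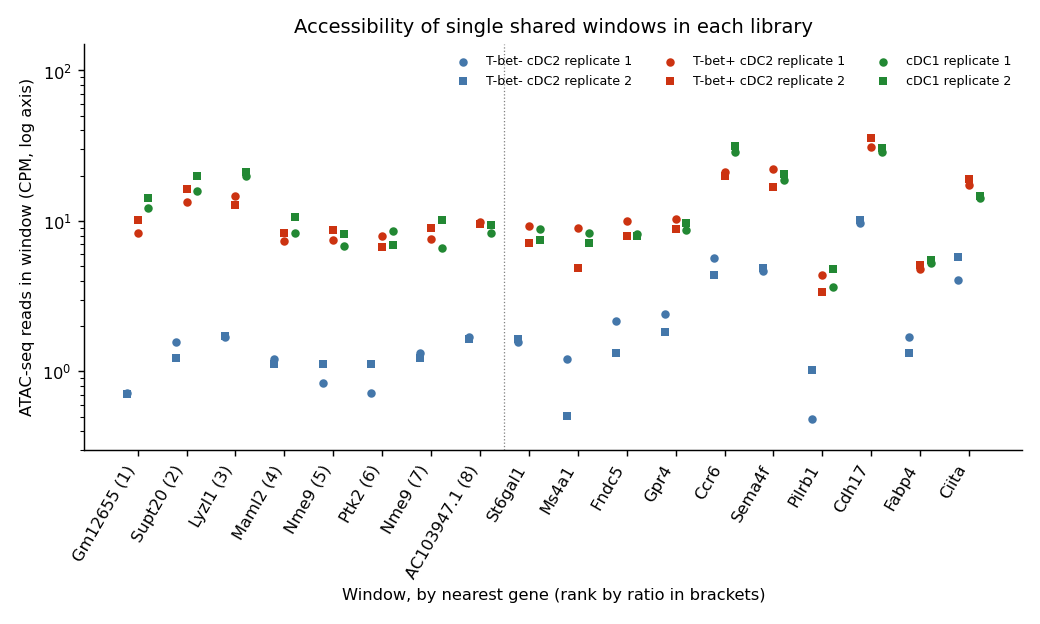
ATAC-seq CPM (log axis) of 18 member windows in each of the 6 spleen libraries, coloured by subset and with a marker for each replicate. To the left of the dotted line are the 8 windows of highest ratio, where T-bet- cDC2s lie at or below 1.73 CPM, and to the right the best window of 10 named genes.

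Some genes held several members. Of the 901 genes nearest to a member, 753 had a single member, 117 had 2 and 31 had 3 or more. The glycosyltransferase gene St6gal1, the cadherin Cdh17, the MHC class II transactivator Ciita and the tyrosine phosphatase Ptpn3 had 5 each, and the kinase Mink1 and the hedgehog coreceptor Cdon had 4 each. Those of Cdh17 lay within 765 bases of a single intronic peak, whereas those of St6gal1 were spread over 86256 bases and 4 peaks and those of Cdon over 79164 bases and 4 peaks. Nme9, the FERM-domain gene Frmd5, the GTPase activator Usp6nl and the semaphorin Sema4f had 3 each. These genes had from 13 windows in all (Cdh17 and Ciita) to 53 (St6gal1).

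The RNA of the genes with the most members did not follow a single pattern. St6gal1 was at 2350 to 3380 normalized counts in T-bet- cDC2s, at 3020 to 3560 in T-bet+ cDC2s and at 2510 to 4690 in cDC1s, with no call between the mean of T-bet+ cDC2s and cDC1s and T-bet- cDC2s (0.31, SE 0.23, adjusted p = 0.48). Ptpn3 was at 46.5, 30.4 and 40.8 in T-bet- cDC2s, at 148, 218 and 114 in T-bet+ cDC2s and at 15.2, 7.74 and 6.85 in cDC1s. It was higher in T-bet+ cDC2s (2.02, adjusted p = 0.028) and lower in cDC1s (-1.96, adjusted p = 0.018) than in T-bet- cDC2s, so that the mean of both stood near 0. Mink1 (-0.19, SE 0.28), Usp6nl (0.67, SE 0.42) and Supt20 (0.54, SE 0.25) did not pass either. Frmd5 was at 17, 47.4 and 57.7 in T-bet- cDC2s, at 777, 800 and 1130 in T-bet+ cDC2s and at 60, 48.4 and 20.6 in cDC1s. It was called for the mean (2.27, SE 0.47, adjusted p = 0.014), but its level was high only in T-bet+ cDC2s (4.38 over cDC1s, SE 0.54, adjusted p = 0.00046). Ptk2 was called narrowly (1.30, SE 0.35, adjusted p = 0.049), and without any of 7 single libraries, all but T-bet- replicate 3 and cDC1 replicate 3, it did not pass (adjusted p of at most 0.18).

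In RNA, more genes nearest to members were higher in T-bet+ cDC2s and cDC1s than the background gave, and about as many were lower as the background gave. Of the 901 genes, 679 were in the RNA table and 582 passed the filter on low counts in spleen. For the mean of T-bet+ cDC2s and cDC1s over T-bet- cDC2s, 47 of the 582 (8.08%) were higher, where 2.43% of all 14377 genes tested were. The count of lower genes was 42 (7.22%), where 6.53% of all genes were. The median log2 fold change was 0.17 in these genes and -0.02 in all genes.

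The higher share was not that of every accessible gene. Among genes nearest to any window at 3 CPM or more, 2.92% were higher and 7.59% lower. Genes nearest to windows higher in T-bet+ cDC2s only or in cDC1s only were higher in 4.52% and 4.2%. Genes nearest to the mirror set, shared by T-bet- cDC2s and cDC1s, were higher in 2.76% and lower in 13.5%. These lists share genes, and the shares are descriptions. Most genes beside a member passed in neither direction.

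The share of higher genes is given here by the place and number of members, as counts with no test between them. With a member in a promoter 23 of 158 genes (14.6%) were higher, with an intronic member 21 of 327 (6.42%). With a single member 30 of 473 (6.34%) were higher, with 2 members 10 of 82 (12.2%), and with 3 or more 7 of 27 (25.9%). The 7 were Cdh17, Cdon, Frmd5, Nme9, Sema4f, the mitochondrial dehydrogenase Gpd2 and the nuclear body protein Sp140. With a ratio of 2 or more 29 of 238 (12.2%) were higher, under 2 it was 18 of 344 (5.23%). Genes that also had a window higher in T-bet- cDC2s alone were higher in 3 of 67 and lower in 15.

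Counts of called genes moved with single libraries. Without T-bet+ replicate 1, 2 or 3, T-bet- replicate 1 or 2, or cDC1 replicate 2, the higher genes numbered 27 to 30, in each case at 4.52% to 5.03% of those tested, and all genes then stood at 1.28% to 1.61%. Without T-bet- replicate 3 they numbered 64 (10.7%), and all genes stood at 6.02%. The 9 spleen libraries fell into 2 classes by the correlation of their RNA levels with GC content: T-bet- replicates 1 and 2 and cDC1 replicate 3 were at -0.46, -0.31 and -0.3, and the other 6 at 0.19 to 0.33. With class as a term 47 genes were higher and 38 lower, and the part of class in the other values was not tested.

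**Figure D4:**
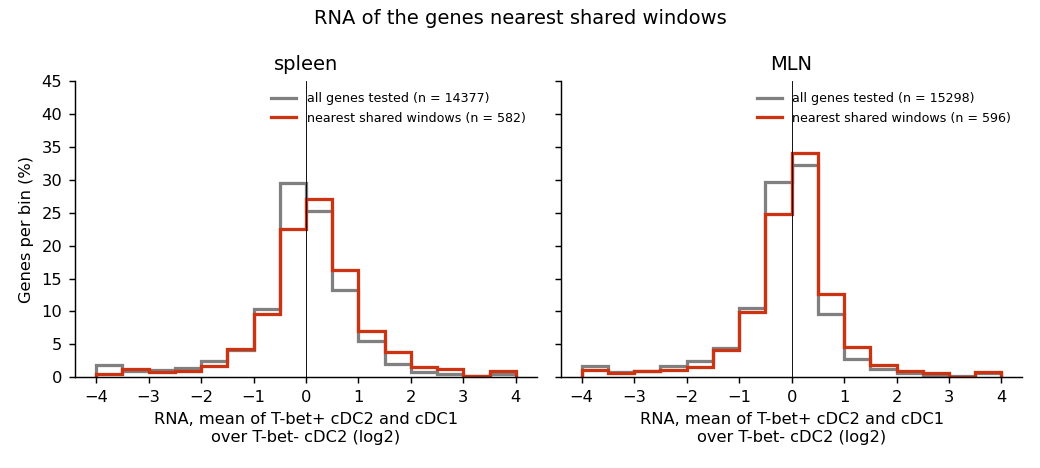
Distribution of the log2 fold change of RNA, mean of T-bet+ cDC2s and cDC1s over T-bet- cDC2s, in spleen and MLN, as percent of genes per bin of 0.5, for genes nearest to members (red) and all genes tested (grey). Values beyond 4 in either direction are in the outer bins. The medians are 0.17 against -0.02 in spleen and 0.08 against -0.03 in MLN.

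Although the windows were about equally open in T-bet+ cDC2s and cDC1s, RNA of some of the nearest genes differed between these subsets. For T-bet+ cDC2s over cDC1s in spleen 100 of 582 (17.2%) were higher, where 9.97% of all genes were. The count of lower genes was 74 (12.7%), where 8.2% of all genes were. Among genes nearest to any window at 3 CPM or more, 11.4% were higher and 10.2% lower. In MLN 46 of 596 were higher (7.72%) against 4.11% of all genes, and 19 lower (3.19%) against 2.11%. Genes nearest to any window at 3 CPM or more were there at 4.85% and 2.89%, so the lower shares of members' genes were close to this background. The median of the members' genes was 0.01 in spleen and 0.07 in MLN, so the differences went both ways. This contrast uses the same T-bet+ and cDC1 libraries as the contrast with T-bet- cDC2s.

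The genes highest in T-bet+ cDC2s and cDC1s were led by Cdh17 and Gpr4. Of the 47 higher genes, 31 averaged 50 or more normalized counts and had all 6 T-bet+ and cDC1 libraries above the 3 T-bet- libraries. Cdh17, a cadherin best known from the intestinal epithelium, was at 17, 6.07 and 0 normalized counts in T-bet- cDC2s, at 1330, 1570 and 673 in T-bet+ cDC2s and at 70.4, 144 and 81.1 in cDC1s. T-bet+ cDC2s stood far above both other subsets, and cDC1s above T-bet- cDC2s. The mean of both subsets was higher by 5.51 (log2, SE 0.84, adjusted p = 0.0029), and T-bet+ cDC2s also exceeded cDC1s (3.59, SE 0.75, adjusted p = 0.0087). Its best window, the intronic sequence above, was at 9.7 and 10.1 CPM in T-bet- cDC2s, at 31 and 35.8 CPM in T-bet+ cDC2s and at 28.7 and 30.7 CPM in cDC1s. The window was open to a like degree in T-bet+ cDC2s and cDC1s, while the RNA was not alike.

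Gpr4, a proton-sensing receptor, was at 332, 234 and 234 normalized counts in T-bet- cDC2s. It was at 4810, 3510 and 3100 in T-bet+ cDC2s and at 5410, 4710 and 4970 in cDC1s. The mean of both subsets was higher than T-bet- cDC2s by 4.03 (log2, SE 0.25, adjusted p = 1.4e-05). T-bet+ cDC2s stood at -0.4 against cDC1s and did not pass (SE 0.23, adjusted p = 0.28), and 1 of their 3 libraries reached the range of cDC1s. The member lies on the start of the gene, chr7:19212461-19212610, at 2.4 and 1.83 CPM in T-bet- cDC2s, at 10.3 and 8.87 in T-bet+ cDC2s and at 8.66 and 9.63 in cDC1s. Accessibility and RNA of Gpr4, measured in separate libraries, were both higher in T-bet+ cDC2s and cDC1s.

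Ms4a1 encodes CD20, a surface protein of B cells. It was at 59, 157 and 125 normalized counts in T-bet- cDC2s, at 702, 539 and 756 in T-bet+ cDC2s and at 844, 1030 and 1790 in cDC1s (2.99, SE 0.40, adjusted p = 0.0014). The subsets did not overlap between T-bet- cDC2s and the others. Its promoter window was at 1.2 and 0.509 CPM in T-bet- cDC2s and between 4.89 and 9.03 CPM in the other 4 libraries (a second gene is as close to it, as for windows of Hook1, Pilrb1, Ptpn3 and Tgm1). Other B cell markers did not follow Ms4a1: Cd79b was highest in T-bet- cDC2s (1660 to 2610 normalized counts) and lowest in cDC1s (42.3 to 96.1), and Pax5 was at most 1.21 in any spleen library. The 5 B cell markers together summed to 1840 to 2770 in T-bet- cDC2s, 1060 to 1510 in T-bet+ cDC2s and 956 to 1850 in cDC1s.

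In another group of genes cDC1s had the highest levels. Sema4f, a transmembrane semaphorin, was at 31.7, 46.1 and 135 normalized counts in T-bet- cDC2s, at 279, 152 and 238 in T-bet+ cDC2s and at 1690, 1930 and 533 in cDC1s (2.96, SE 0.60, adjusted p = 0.013, and 0.063 without T-bet- replicate 2). Serpinb6b, a protease inhibitor of a family with near-identical copies whose reads may be shared, was at 390, 170 and 176, at 783, 758 and 716 and at 4600, 4740 and 4960 (2.95, SE 0.31, adjusted p = 0.00034). Both were also lower in T-bet+ cDC2s than in cDC1s, by -2.63 (adjusted p = 0.016) and -2.66 (adjusted p = 0.00046). Nme9 was at 63.5, 36.4 and 49.7, at 133, 77 and 144 and at 384, 208 and 337 normalized counts (1.93, SE 0.36, adjusted p = 0.008). Fndc5, the precursor of irisin, was at 36.3, 34 and 7.1, at 195, 142 and 169 and at 661, 427 and 410 (3.50, SE 0.51, adjusted p = 0.0023). Aff3, a nuclear protein of lymphoid cells, was at 3.4 to 14.6, at 32.7 to 36.3 and at 83.4 to 128 (2.50, SE 0.50, adjusted p = 0.012). For Nme9 the difference between T-bet+ cDC2s and cDC1s also passed (-1.39, adjusted p = 0.03) and for Aff3 too (-1.66, adjusted p = 0.047), while for Fndc5 it was -1.57 (adjusted p = 0.054). T-bet+ cDC2s alone were higher than T-bet- cDC2s in Serpinb6b (1.62, adjusted p = 0.019) and Fndc5 (2.72, adjusted p = 0.018), and did not pass in Sema4f (1.64, adjusted p = 0.18), Nme9 (1.24, adjusted p = 0.11) or Aff3 (1.67, adjusted p = 0.11).

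In a further group T-bet+ cDC2s and cDC1s overlapped or lay close. Egr3, a zinc-finger factor induced by receptor signalling, was at 349, 434 and 220 normalized counts in T-bet- cDC2s, at 1680, 1400 and 1520 in T-bet+ cDC2s and at 1200, 1550 and 1140 in cDC1s (2.08, SE 0.26, adjusted p = 0.00099). Rab30, a GTPase of the Golgi, was at 823, 747 and 609, at 2650, 3410 and 3330 and at 2110, 2420 and 2070 (1.85, SE 0.19, adjusted p = 0.0003). Hgfac, the activating protease of hepatocyte growth factor, was at 31.6 to 47.1, at 180 to 311 and at 250 to 401 (2.77, SE 0.33, adjusted p = 0.00063). None of the 3 differed between T-bet+ cDC2s and cDC1s at an adjusted p under 0.05. Sdcbp2, a syntenin scaffold, was at 9.07 to 18.2 in T-bet- cDC2s and 53 to 154 in the other 6 libraries (2.97, SE 0.46, adjusted p = 0.0031). Cdon was at 57.1 to 125 and 214 to 552 (2.00, SE 0.33, adjusted p = 0.0044), the dynein adaptor Hook1 at 9.07 to 34 and 37.7 to 239 (2.69, adjusted p = 0.037) and Triqk at 6.07 to 23.8 and 37.1 to 141 (2.30, adjusted p = 0.033). The call of Hook1 was lost without any library but T-bet+ replicate 3 or cDC1 replicate 3 (adjusted p of at most 0.13) and with library class as a term (1.92, adjusted p = 0.21). That of Triqk was lost without any library but cDC1 replicates 1 and 3 (adjusted p of at most 0.095).

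**Figure D5:**
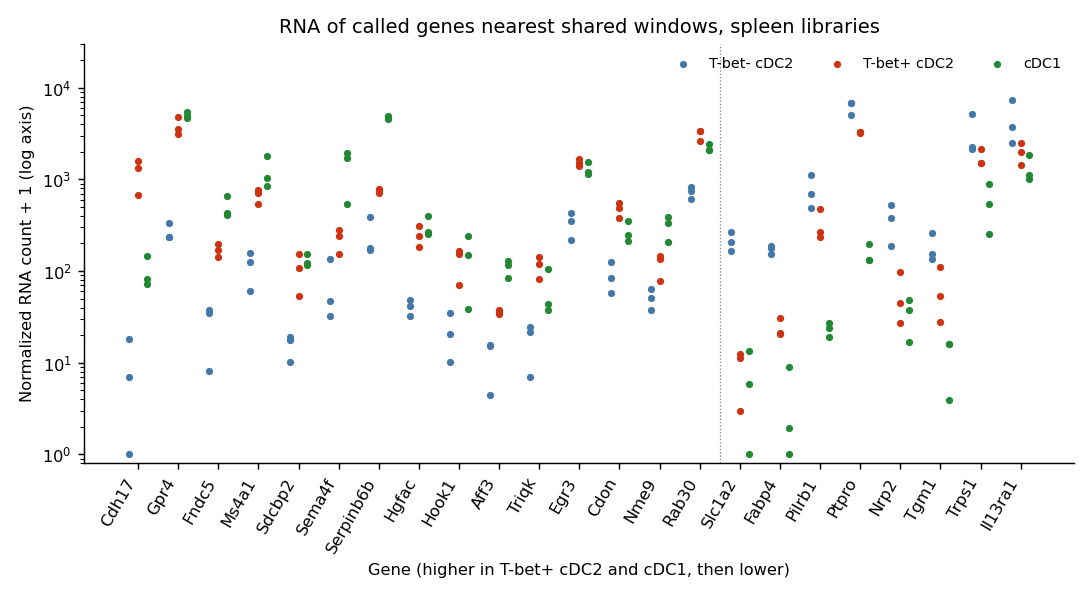
Normalized RNA counts plus 1 (log axis) in each of the 9 spleen libraries for the 15 genes most higher and the 8 most lower in T-bet+ cDC2s and cDC1s among genes nearest to members. Each point is a library. By the rule that chose them, T-bet- cDC2 libraries lie below all others left of the dotted line and above all others right of it.

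Genes lower in T-bet+ cDC2s and cDC1s, with a nearest window that was more open there, were about as frequent as among all genes (7.22% against 6.53%). Of these 42 genes, 20 met the same demands on level and overlap. Slc1a2, a glutamate transporter, was at 268, 165 and 205 normalized counts in T-bet- cDC2s, at 10.3, 11.5 and 1.96 in T-bet+ cDC2s and at 0, 4.84 and 12.6 in cDC1s (-4.96, SE 0.71, adjusted p = 0.002). Fabp4, a fatty acid carrier of macrophages and fat cells, was at 189, 176 and 152, at 29.9, 20.3 and 19.6 and at 0, 0.967 and 8 (-4.38, SE 0.62, adjusted p = 0.0018). For both genes RNA and accessibility of the nearest member went opposite ways. The Fabp4 window, 3463 bases from the gene, was at 1.68 and 1.32 CPM in T-bet- cDC2s and at 4.76 to 5.5 CPM in the other 4 libraries. Ptpro, a receptor tyrosine phosphatase, was at 6780, 5070 and 6800, at 3280, 3260 and 3240 and at 131, 130 and 196 normalized counts (-3.14, SE 0.19, adjusted p = 1.2e-05). It was lower in T-bet+ cDC2s too (-0.93, SE 0.22, adjusted p = 0.041), though most of the difference came from cDC1s (-5.35, SE 0.26, adjusted p = 3.7e-06).

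Pilrb1, an activating receptor whose paralogs can share reads, was at 481 to 1130 normalized counts in T-bet- cDC2s, 237 to 469 in T-bet+ cDC2s and 18.3 to 26.1 in cDC1s (-3.17, SE 0.32, adjusted p = 0.00025). Nrp2, a receptor for semaphorins and VEGF, was at 186 to 529, 26.1 to 96.4 and 16 to 47.4 (-3.08, SE 0.48, adjusted p = 0.0033), and was lower in T-bet+ cDC2s alone (-2.71, adjusted p = 0.033). Tgm1, a transglutaminase, was at 135 to 257, 26.5 to 110 and 2.9 to 15.2 (-2.78, SE 0.54, adjusted p = 0.01). In Slc1a2 and Nrp2 both subsets passed on their own, whereas in Pilrb1, Fabp4 and Tgm1 only cDC1s did, and the difference between these outcomes was not tested. Trps1, a GATA-type repressor (-1.71, adjusted p = 0.024), and Il13ra1, a chain of the IL-13 receptor (-1.51, adjusted p = 0.023), lost their calls without single libraries. For Trps1 these were T-bet+ replicates 1 and 3, T-bet- replicate 1 (-1.18, adjusted p = 0.13) and cDC1 replicate 2. For Il13ra1 they were T-bet+ replicates 1 and 3, cDC1 replicate 1 and T-bet- replicate 3, without which it stood at -0.98 (adjusted p = 0.073). The summed macrophage and monocyte markers were also highest in T-bet- cDC2s, at 14700 to 22100 normalized counts. Among them Adgre1 overlapped between the cDC2 subsets, and Ly6c2 reached its highest level in cDC1s. The part of these markers in the results was not tested.

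Transcription factors of DCs held members at about the share of all windows. Of 34 listed, 5 had 1 member each: Batf3, Bach2, Runx1, Tcf4 and Etv6, which makes 5 of the 685 windows nearest to listed genes (0.73%, where 0.624% of all windows were members). In spleen RNA 2 of 33 tested were higher (Id2 and Nr4a2) and 7 lower (among them Bach2, Batf, Klf4, Tcf4 and Zeb2), where 2.43% and 6.53% of all genes were. Batf3, needed for cDC1 development, was at 768, 1620 and 1850 normalized counts in T-bet- cDC2s, at 2710, 1980 and 3610 in T-bet+ cDC2s and at 3790, 2210 and 2140 in cDC1s, and did not pass (0.95, SE 0.34, adjusted p = 0.13). All 6 libraries of T-bet+ cDC2s and cDC1s lay above the 3 of T-bet- cDC2s. Bach2, a repressor of effector programs, was lower (-2.45, SE 0.54, adjusted p = 0.021), as was Tcf4, an E protein that plasmacytoid DCs require (-1.08, SE 0.22, adjusted p = 0.014). Bach2 was at 81.4 to 112 normalized counts in T-bet- cDC2s, at 6.87 to 46.7 in T-bet+ cDC2s and at 9.52 to 20.6 in cDC1s, opposite to its intronic window, which was at 11.7 and 10.7, at 26.9 and 20.4 and at 27.9 and 23.4 CPM. Its call was lost without T-bet- replicate 1 or 2, T-bet+ replicate 2 or cDC1 replicate 1 or 2 (adjusted p of at most 0.061) and that of Tcf4 without T-bet- replicate 1 (0.076). Runx1 (0.16, SE 0.46) and Etv6 (-0.2, SE 0.18) did not pass.

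Among 22 genes typical of cDC1s, Ly75 and Flt3 had 1 member each, 2 of 284 windows (0.704%). Of the 22, 10 were higher in the mean of both subsets, where 2.43% of all genes were, but that mean contains the cDC1s that the list describes. Xcr1, for one, was at 105 to 165 normalized counts in T-bet+ cDC2s, 168 to 302 in T-bet- cDC2s and 18900 to 27500 in cDC1s. Ly75, the endocytic receptor DEC-205, was at 975, 350 and 622 normalized counts in T-bet- cDC2s, at 511, 526 and 592 in T-bet+ cDC2s and at 2910, 6300 and 9810 in cDC1s. Only cDC1s stood out: their difference from T-bet- cDC2s was 3.29 (SE 0.49, adjusted p = 0.0016), and that of T-bet+ cDC2s -0.26 (SE 0.45, adjusted p = 0.8). Flt3, the receptor of the cytokine that drives DC development, was at 3560 to 11700, 10900 to 11600 and 9280 to 16800 and did not pass (0.87, SE 0.36, adjusted p = 0.19). In the T-bet- cDC2 group a single library, replicate 3, reached the level of the others.

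In the Notch pathway, on which types of cDC2s depend to a variable degree, Maml2 and Maml3 had 2 members each, 4 of 341 windows (1.17%). Of 18 listed genes tested Maml3 alone passed, and it was lower. Maml3 was at 179, 271 and 205 normalized counts in T-bet- cDC2s, at 92.4, 205 and 177 in T-bet+ cDC2s and at 24.7, 27.1 and 19.4 in cDC1s (-1.83, SE 0.30, adjusted p = 0.0046). The T-bet+ cDC2 levels overlapped those of T-bet- cDC2s, and T-bet+ cDC2s exceeded cDC1s (2.73, SE 0.39, adjusted p = 0.0012). Maml2, with the fourth highest window ratio, was at 83.9, 47.4 and 32.8, at 18.7, 9.73 and 6.87 and at 59, 101 and 171 (-0.6, SE 0.48, adjusted p = 0.52). T-bet+ cDC2s were the lowest in Maml2 RNA and below cDC1s by -3.21 (SE 0.61, adjusted p = 0.0056), although its windows were open to a like degree in both.

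Antigen processing and costimulation genes held 7 members in 210 windows (3.33%, where 0.624% of all windows were members), near Ciita, H2-Ab1 and Pdcd1lg2. Ciita alone held 5 of the 7, some of them overlapping windows that count the same reads, so the share is largely that of Ciita. Ciita switches on the MHC class II genes. Its best member, in an intron, was at 4.07 and 5.8 CPM in T-bet- cDC2s, at 17.2 and 19 CPM in T-bet+ cDC2s and at 14.3 and 14.7 CPM in cDC1s. Its RNA was at 17800 to 20200, 13500 to 16100 and 14400 to 29500 normalized counts and did not pass (-0.17, SE 0.22, adjusted p = 0.7). H2-Ab1, a class II chain, was near 0 as well (0.03, SE 0.21, adjusted p = 0.95). Pdcd1lg2, which encodes PD-L2, was at 776 to 968 in T-bet- cDC2s, 794 to 985 in T-bet+ cDC2s and 29 to 75.4 in cDC1s (-2.08, SE 0.27, adjusted p = 0.001). T-bet+ cDC2s stood at -0.02 against T-bet- cDC2s (adjusted p = 0.98) and exceeded cDC1s by 4.12 (adjusted p = 5.8e-05), although its window, 10876 bases from the gene, was more open in both subsets. Of the 21 listed genes 2 (Psmb9 and Tap2) were higher and 5 (B2m, Cd274, Cd74, H2-DMb1 and Pdcd1lg2) lower. Of all genes 2.43% were higher and 6.53% lower.

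Of 19 migration genes, Ccr6, the receptor for CCL20, alone had members, 2 of 250 windows (0.8%). The promoter window was at 5.63 and 4.38 CPM in T-bet- cDC2s, at 21 and 20 in T-bet+ cDC2s and at 28.9 and 31.4 in cDC1s. Ccr6 RNA was at 422, 640 and 282 normalized counts in T-bet- cDC2s, at 1090, 1600 and 1430 in T-bet+ cDC2s and at 34.3, 8.7 and 30.8 in cDC1s. The cDC1s, where the window was most open, had the least RNA (-4.18 against T-bet- cDC2s, SE 0.52, adjusted p = 0.00055), and T-bet+ cDC2s had the most (1.61, SE 0.45, adjusted p = 0.077). In this list 1 gene (Cxcr3) was higher and 8 were lower, where 2.43% and 6.53% of all genes were. Of 20 monocyte and macrophage genes none had a member among 186 windows. As only 0.624% of all windows were members, so few windows cannot show that members were lacking there. In spleen RNA 19 of the 20 were lower, where 6.53% of all genes were. The mean of T-bet+ cDC2s and cDC1s stood there at a median of -3.55.

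In MLN, where no ATAC-seq was made, few of the nearest genes passed. Of 596 tested, 2 (0.336%) were higher, where 0.111% of all 15298 genes were. The lower genes numbered 8 (1.34%), where 1.58% of all genes were, and 112 of the 596 had an unadjusted p under 0.05. The 2 were Cdh17 and the phosphatase Cdc14a. Cdh17 was at 23.3 and 29.1 normalized counts in T-bet- cDC2s, at 1170 and 639 in T-bet+ cDC2s and at 175, 55 and 123 in cDC1s (3.63, SE 0.58, adjusted p = 0.027), the same order as in spleen. The 8 lower genes were Fabp4, Npl, Nrp2, Pilrb1, Pou2f2, Ptpro, Slc1a2 and Tgm1, of which Npl and Pou2f2 are named because they are part of this count. Fabp4 (-4.1, SE 0.75, adjusted p = 0.042) and Slc1a2 (-4.47, SE 0.72, adjusted p = 0.028) had values near those of spleen, and Pilrb1 stood at -4.81 (SE 0.44, adjusted p = 0.004) against -3.17 in spleen. Without T-bet- replicate 1, 0 genes passed in either direction, and without T-bet- replicate 2 or cDC1 replicate 3, 0 were higher.

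The difference between tissues was tested in a fit of all 16 RNA libraries. It passed for 2 of 16795 genes (0.0119%), of which Gpr4 was the only gene nearest to a member among 615 tested (3.07 on the log2 scale, spleen minus MLN, SE 0.37, adjusted p = 0.013). Gpr4 was at 1100 and 812 normalized counts in MLN T-bet- cDC2s, at 1210 and 1150 in T-bet+ cDC2s and at 4020, 1730 and 2550 in cDC1s, and stood at 0.92 (log2, SE 0.35, adjusted p = 0.31). In MLN T-bet+ cDC2s were close to T-bet- cDC2s and cDC1s above both, unlike in spleen. Ms4a1 (0.81, SE 0.33), Fndc5 (0.4, SE 0.38) and Nme9 (0.05, SE 0.45) had small values in MLN, and for none of them did the difference between tissues pass. That does not show that the tissues were alike, since the differences (log2, spleen minus MLN) were 2.12 for Ms4a1 (SE 0.50, adjusted p = 0.47), 3.05 for Fndc5 (SE 0.62, adjusted p = 0.41) and 1.84 for Nme9 (SE 0.55, adjusted p = 0.74).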

How the data were processed

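The authors aligned ATAC-seq reads to mm10 with Bowtie2 2.2.5, shifted them by 4 or 5 bases by strand, called peaks with MACS2 2.1.1.20160309 on all replicates together, and deposited raw read counts in windows of 150 bases around summits and in whole peaks. RNA-seq counts, as deposited by the authors, are reads aligned with HISAT2 2.1.0 and counted on GENCODE genes with Rsubread, without normalization. Whether counting used strand is not given in the sources used here, so overlapping and antisense genes are uncertain. A sentence of the study's methods exchanges the RFP+ and RFP- subsets, and the sample labels were followed.

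The members, gene lists and tests were chosen with earlier results of these data known. Each window was given the closest gene body within 50000 bases (1090 members, 901 genes, 84 with equally close genes), and was called promoter within 2000 bases of any annotated transcript start. RNA counts of each tissue were filtered with filterByExpr, normalized by TMM and tested with the quasi-likelihood test of edgeR 4.0.16 in R 4.3.3, with subset as the only term and an adjusted p under 0.05 over all genes. The fits left 6 (spleen) and 4 (MLN) degrees of freedom. Normalized counts are counts divided by the effective library size and multiplied by the mean library size. On simulated spleen counts with 200 changed genes, 88 of those changed 8-fold and 78 of those changed 4-fold were recovered, with 5 false calls among 14377 genes. Named genes are the 8 windows of highest ratio, the 10 genes with the most members, the 15 most higher and 8 most lower called genes that averaged 50 or more normalized counts and whose groups do not overlap, and genes of the lists that have a member. Other genes named were chosen after their values were seen. A few members of the gene lists count in the lists' totals and are not reported here. The alternatives were DESeq2 1.42.0, its size factors, other filters, library class, a replicate block, other gene assignments and leaving out each library. The labels' replicate numbers do not say that libraries share animals. Python 3.11.15, pandas 2.3.3, numpy 2.4.6, scipy 1.17.1 and matplotlib 3.10.9 were used. The depth per library, given in the report, limits windows in T-bet- cDC2s most, where the median member had 26 reads, and intervals cover counting error only.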

Additional observations from a re-analysis of the deposited data

Results flagged for a closer look

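Gpr4 was the gene nearest to a member for which the contrast of T-bet+ cDC2s and cDC1s over T-bet- cDC2s differed between tissues, by 3.07 on the log2 scale (spleen minus MLN, SE 0.37, adjusted p = 0.013, edgeR interaction test over 16795 genes). It stood at 4.03 in spleen, where all 6 T-bet+ and cDC1 libraries were above the 3 T-bet- libraries, and at 0.92 in MLN, where T-bet+ cDC2s (1210 and 1150 normalized counts) lay just above T-bet- cDC2s (1100 and 812).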

How the results depend on the processing

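The number of members followed the thresholds: 711 at a minimum of 5 CPM, 2122 at 1.25-fold over T-bet- cDC2s, 415 at 2-fold, and 1358 to 2016 without single libraries. With TMM scaling 1141 windows met the rule, 892 of them members. With promoters within 1000 bases 19.2% of members were in promoters and 48.2% in introns. Against windows at 3 CPM or more, a background chosen after seeing the data, the ratio of shares was 1.57 for PU.1, 0.68 for Klf and 0.91 for CRE. In windows chosen with replicate 1 alone, also added after seeing the data, it was 1.75 for CACCTG, 1.92 for PU.1, 1.29 for Runx and 1.3 for T-box, and with replicate 2 alone 1.8 for CACCTG and 1.96 for PU.1. Higher genes in spleen numbered 71 with DESeq2, 76 with no filter on low counts and 27 to 64 without single libraries, and lower genes 25 to 47. In each of these settings the higher share was above that of all genes. In MLN higher genes numbered 29 with DESeq2, 24 with no filter, 1 with library class as a term and 0 to 3 without single libraries. Lower genes in MLN numbered 26, 27, 3 with at least 10 counts in every library and 0 to 12. For T-bet+ cDC2s over cDC1s in spleen, higher genes numbered 66 to 101 and lower genes 47 to 85 without single libraries, and the median was -0.02 with DESeq2 size factors, -0.02 with at least 10 counts in every library and -0.1 to 0.06 without single libraries. Genes near 0 changed sign: H2-Ab1 was -0.0044 with DESeq2 size factors, -0.09 with library class and -0.2 to 0.24 without single libraries, Ptpn3 -0.16 with class and -0.17 to 0.17, and Runx1 -0.54 with class and -0.15 to 0.91. The cause was not tested.

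Replicate numbers did not pair the samples. Deviations of same-numbered libraries correlated at -0.74 to 0.66 in RNA and -0.09 to 0.05 in ATAC-seq. With the replicate block 27 spleen genes were higher and 26 lower, and Ptpn3 stood at -0.0034. The calls of Bach2, Frmd5, Il13ra1, Ptk2, Sema4f, Tcf4, Triqk and Trps1 were not made with the block (adjusted p of 0.051 to 0.13). In MLN a block by the number in the library name gave 20 higher and 32 lower, and the block by replicate number 3 and 8.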
